A study of Mus musculus with 16 samples.

Results

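The aldo-keto reductase genes *Akr1c6*, *Akr1c12*, *Akr1c13*, *Akr1c14*, *Akr1c19* and *Akr1c20* and their neighbour *Asb13* lie together on proximal mouse chromosome 13, near the locus that names the CRE transgene of this cross. These 7 genes, of 17003 in the expression table, were chosen on the genotype difference of these same livers, known from earlier results, and on their place in the genome. Their genotype differences are therefore described with a standard error (SE) and without a test. Liver polyA RNA of 16 male mice, 8 weeks old and labelled fed, was sequenced with 1 library per mouse. The 8 Fgl1 WT mice carried floxed *Fgl1* alleles, made by crossing the EUCOMM allele with a CAG-Flpo line, and had no CRE. The 8 Fgl1 LKO littermates carried the same floxed alleles and CRE under the albumin promoter, which acts in hepatocytes. A liver also holds other cells that keep *Fgl1* intact. CRE came from a strain named after *Speer6-ps1*, and none of the groups carried this transgene without the floxed alleles, so that loss of *Fgl1*, the transgene and the chromosome segment inherited with it cannot be told apart. Expression is given in FPKM, fragments scaled to transcript length and to the mapped fragments of the library, as deposited by the authors.

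Aldo-keto reductases are cytosolic enzymes that use nicotinamide cofactors to interconvert carbonyl groups and alcohols. The AKR1C enzymes act on steroids, prostaglandins and foreign compounds, and several of them are hydroxysteroid dehydrogenases that set the amount of active hormone in a cell. In mice their genes form a cluster of close copies, and the liver, which clears steroids, is one of the tissues where many of them are expressed. ASB13 has ankyrin repeats and a SOCS box, through which proteins of this family bring substrates to ubiquitin ligases built on Cullin-5.

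The place named in the strain fitted the annotation. On GRCm39 (GENCODE vM39), *Speer6-ps1* lies on the plus strand of chromosome 13 from 3199425 to 3242491. This is the span of a long noncoding RNA of that name, from which distances are measured here. A pseudogene of the same name lies within it, from 3236206 to 3239317. The 7 genes span 3683920 to 4573354, or 889.4 kb. *Asb13* is the nearest, 441.4 kb from the end of *Speer6-ps1*, and *Akr1c20* the farthest at 1294.4 kb. *Akr1c14* (4099002 to 4141081), *Akr1c13* (4241149 to 4255602), *Akr1c19* (4278699 to 4302842), *Akr1c12* (4318168 to 4329432) and *Akr1c6* (4484305 to 4507876) lie between them. *Akr1c12* and *Akr1c20* are on the minus strand and the other 5 genes on the plus strand. The insertion itself was not measured by these data.

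The coding sequences of the 6 *Akr1c* genes, 969 bases each without the stop codon, fell into 2 close pairs. *Akr1c12* and *Akr1c13* were identical at 96.2% of aligned positions, and *Akr1c6* and *Akr1c20* at 92.3%. The other pairs lay between 72.3% and 77.8%, with a median of 73.8% over all 15 pairs. The likeness of *Akr1c12* and *Akr1c13* extended upstream of the gene. Promoters of 6 of the 7 genes matched in the RefSeq promoter table (build GRCm38.p6, another build than that of the positions above), and the 250 bases before the start of *Akr1c12* and *Akr1c13* were identical at 92.5% of aligned positions, against 58.7% or less for the other 9 pairs among 5 *Akr1c* promoters. They are shown here as the most alike of the 10 pairs compared, which do not include *Akr1c20*. Capitals mark bases not shared in the alignment, at 11 substituted and 8 gap positions. *Akr1c12* is read from chr13:4279400-4279649 on the minus strand and *Akr1c13* from chr13:4190937-4191186 on the plus strand.
*Akr1c12*: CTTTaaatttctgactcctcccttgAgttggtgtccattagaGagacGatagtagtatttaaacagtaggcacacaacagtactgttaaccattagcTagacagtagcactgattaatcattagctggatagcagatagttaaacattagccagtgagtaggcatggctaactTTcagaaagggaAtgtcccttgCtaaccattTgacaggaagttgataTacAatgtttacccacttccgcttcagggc
*Akr1c13*: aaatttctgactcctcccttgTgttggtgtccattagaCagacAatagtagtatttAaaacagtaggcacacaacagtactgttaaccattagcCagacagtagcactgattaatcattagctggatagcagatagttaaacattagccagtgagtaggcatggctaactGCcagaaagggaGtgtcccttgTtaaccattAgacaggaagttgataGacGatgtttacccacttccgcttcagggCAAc

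In the 300 bases around the start of these 6 genes, 3 motifs were searched on both strands. TATAAA occurred in *Akr1c6*, from position -164 relative to the start, and in 13.6% of all 32851 promoters of the table. The antioxidant response element core TGACNNNGC occurred in *Akr1c19*, 7 bases after the start, and in 12.4% of promoters. CAAAGTCCA, a sequence bound by HNF4A, occurred in 0.475% of promoters and in none of the 6. Reads of such close copies can be hard to assign. Of all 150-base stretches of the *Akr1c12* transcript, the length of a read, 7.06% also occurred in another gene's transcript, and 7.05% of those of *Akr1c13*. For *Akr1c19* this share was 2.54%, through the processed pseudogene *Marcksl1-ps4* within its span. It was 0.0% for *Akr1c6*, *Akr1c14*, *Akr1c20* and *Asb13*. Levels of *Akr1c12* and *Akr1c13* are thus less certain as separate values, since the authors' way of counting such reads is not given in the sources used here.

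The targeted gene separated the labels. *Fgl1* (chromosome 8) ranged from 158 to 1331 FPKM in Fgl1 WT mice (median 312) and from 13.2 to 90.0 FPKM in Fgl1 LKO mice (median 50.3). Every Fgl1 WT mouse lay above every Fgl1 LKO mouse, at a log2 fold change of -3.11 (SE 0.49, limma adjusted p = 0.0725, n = 8 per genotype). Without the 3 Fgl1 WT mice of the first run of mouse numbers, described below, it was -3.71 (SE 0.51, limma adjusted p = 0.0453).

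*Akr1c6*, which encodes a 17-beta-hydroxysteroid dehydrogenase, was by far the most abundant of the 7 genes. Its FPKM ranged from 649 to 957 in Fgl1 WT mice (median 756) and from 569 to 749 in Fgl1 LKO mice (median 685). The genotypes overlapped, although every Fgl1 LKO mouse was below the median of Fgl1 WT and 5 Fgl1 WT mice lay above the highest Fgl1 LKO mouse. The means were 806 ± 118 FPKM (SD, n = 8) and 676 ± 55.0 FPKM (SD, n = 8), with a log2 fold change of -0.24 (SE 0.09) on the log2(FPKM + 1) scale. *Akr1c6* ranked 113th of all genes by mean FPKM and made up 65.5% of the summed FPKM of the 6 *Akr1c* genes, from 60.9% to 68.3% in single mice.

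*Akr1c14*, a 3-alpha-hydroxysteroid dehydrogenase gene, came next and varied most in Fgl1 WT. It ranged from 107 to 300 FPKM in Fgl1 WT mice (median 155) and from 84.4 to 176 FPKM in Fgl1 LKO mice (median 132). The 3 highest values of all 16 mice, 210, 227 and 300 FPKM, belonged to Fgl1 WT replicates 1, 3 and 2, the mice of the first run, and the other 5 Fgl1 WT mice lay within the range of the Fgl1 LKO mice. Fgl1 WT averaged 175 ± 66.8 FPKM (SD, n = 8) and Fgl1 LKO 133 ± 26.7 FPKM (SD, n = 8), with a log2 fold change of -0.33 (SE 0.19). Its coefficient of variation was 38.1% in Fgl1 WT, the largest of the 7, while in Fgl1 LKO *Akr1c19* had the largest, 23.6%.

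*Akr1c20*, a close copy of *Akr1c6*, also stood high in the first run. Its FPKM ranged from 47.0 to 81.3 in Fgl1 WT mice (median 56.5) and from 39.1 to 63.7 in Fgl1 LKO mice (median 55.2). The 3 values above all others were again those of the first run, and the medians of the genotypes were close. The means were 60.8 ± 13.5 FPKM (SD, n = 8) and 53.8 ± 8.02 FPKM (SD, n = 8), with a log2 fold change of -0.16 (SE 0.12).

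The twin genes *Akr1c13* and *Akr1c12* varied little among mice. *Akr1c13* ranged from 69.7 to 96.7 FPKM in Fgl1 WT mice (median 80.7) and from 66.2 to 84.7 FPKM in Fgl1 LKO mice (median 72.4). *Akr1c12* ranged from 57.0 to 78.2 FPKM (median 65.2) and from 48.1 to 68.8 FPKM (median 57.1). In both genes 7 of 8 Fgl1 LKO mice were below the median of Fgl1 WT, and the ranges overlapped. The log2 fold changes were -0.15 (SE 0.07) for *Akr1c13*, from 81.4 ± 8.39 to 73.3 ± 6.49 FPKM (SD, n = 8), and -0.18 (SE 0.08) for *Akr1c12*, from 66.0 ± 6.63 to 58.3 ± 6.67 FPKM (SD, n = 8). *Akr1c13* was the higher of the pair in 16 of 16 mice, by 0.31 ± 0.10 (SD) on the log2 scale.

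*Akr1c19* had the lowest level of the *Akr1c* genes chosen here. Its genotype difference was the smallest in the fit on all mice without a term for the runs of mouse numbers. It ranged from 30.1 to 58.3 FPKM in Fgl1 WT mice (median 39.7) and from 27.7 to 53.8 FPKM in Fgl1 LKO mice (median 35.5), so that the ranges were nearly the same. The means were 40.2 ± 8.91 and 38.1 ± 9.01 FPKM (SD, n = 8 each), with a log2 fold change of -0.08 (SE 0.14).

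*Asb13*, the ubiquitin ligase adaptor gene, had the lowest level of the 7. It ranged from 16.9 to 24.0 FPKM in Fgl1 WT mice (median 22.5) and from 14.7 to 20.1 FPKM in Fgl1 LKO mice (median 17.2). As for *Akr1c6*, each of the 8 Fgl1 LKO mice was below the median of Fgl1 WT, 5 Fgl1 WT mice lay above every Fgl1 LKO mouse, and the ranges overlapped. The means were 21.3 ± 2.82 FPKM (SD, n = 8) and 17.4 ± 1.89 FPKM (SD, n = 8), with a log2 fold change of -0.27 (SE 0.08).

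**Figure D1:**
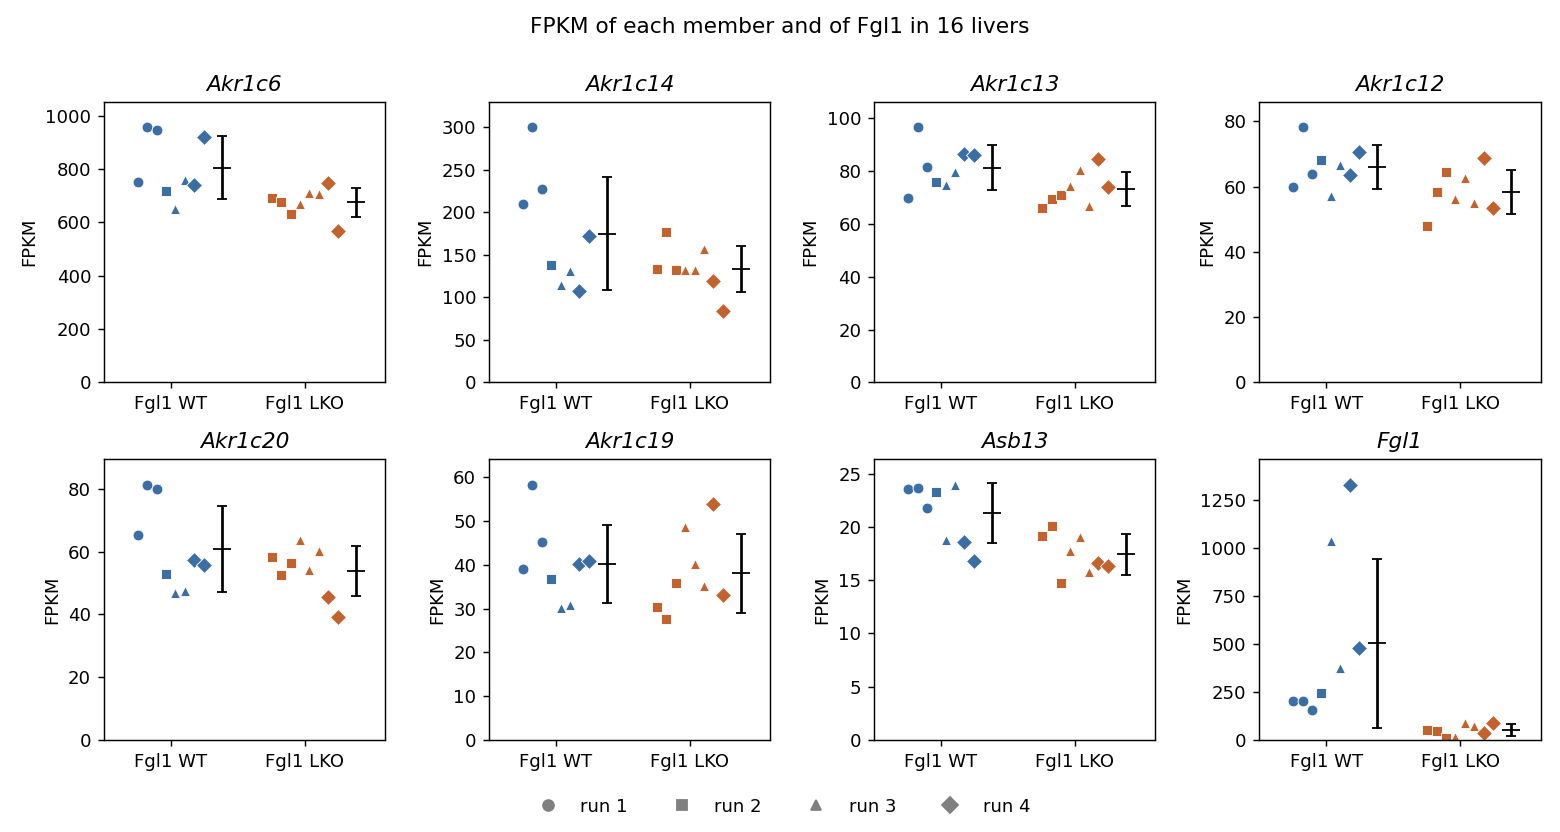
FPKM (vertical axis, linear from 0) of the 7 genes and of Fgl1 in each of the 8 Fgl1 WT mice (blue) and 8 Fgl1 LKO mice (orange), with the mean and SD in black and 1 symbol for each run of mouse numbers. The 3 first-run mice (circles) lie above all 13 other mice in Akr1c14 and Akr1c20, and only Fgl1 separates the genotypes.

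By mean FPKM over all 16 mice the order was *Akr1c6* (741), *Akr1c14* (154), *Akr1c13* (77.3), *Akr1c12* (62.1), *Akr1c20* (57.3), *Akr1c19* (39.2) and *Asb13* (19.4). Each gene exceeded the next in at least 15 of 16 mice, except that *Akr1c12* exceeded *Akr1c20* in 10 of 16. The difference of that pair, 0.13 ± 0.28 (SD) on the log2 scale, was smaller than its spread over mice. The summed FPKM of the 6 *Akr1c* genes was 1230 ± 205 (SD, n = 8) in Fgl1 WT and 1030 ± 82.4 (SD, n = 8) in Fgl1 LKO. It was 1400 ± 191 (SD, n = 3) in the first run and 1120 ± 136 (SD, n = 5) in the other Fgl1 WT mice.

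All 7 genes had a log2 fold change below 0, as did 44.2% of the 12770 genes kept for the fit (average FPKM 0.1 or more, which all 7 passed). Over all genes, limma gave an unadjusted p under 0.05 to 895 (2.36% of all genes lower and 4.64% higher in Fgl1 LKO), and 0.0% passed after Benjamini-Hochberg adjustment. These calls are not counted for the 7 genes, which were selected on this contrast. The genotypes separated without overlap in 0 of the 7 and in 0.0157% of all genes, namely *Fgl1* and *Fitm2*. *Fitm2*, a lipid droplet gene named after its values were seen, was higher in Fgl1 LKO (log2 fold change 0.52, SE 0.10, limma adjusted p = 0.341). Nothing is read from the counts of the 7 genes against these shares.

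The mouse numbers were divided here into 4 runs, and the labels do not say what a run stands for. The first (mice 36 to 38) held 3 Fgl1 WT mice and no Fgl1 LKO mouse, the next (48 to 55) 1 and 3, then (60 to 64) 2 and 3, and the last (69 to 72) 2 and 2. Mouse 55, as far in number from mouse 50 as from mouse 60, was put with the lower numbers. Fits with a run term and values within runs rest on this choice, and no other grouping is given here. Several of the 7 genes differed between the first run and the other 5 Fgl1 WT mice. *Akr1c14* averaged 246 ± 47.8 FPKM (SD, n = 3) in the first run and 133 ± 25.6 FPKM (SD, n = 5) in the other Fgl1 WT mice, a ratio of 1.85. For *Akr1c20* the ratio was 1.45 (75.5 ± 8.99 against 52.0 ± 4.69 FPKM, SD), for *Akr1c19* 1.33 and for *Akr1c6* 1.17. *Asb13* (1.13), *Akr1c13* (1.03) and *Akr1c12* (1.03) differed little. The 3 first-run mice lay above the 5 others without overlap in 2 of the 7 genes, *Akr1c14* and *Akr1c20*, and in 7.2% of all genes, a comparison chosen after the data were seen.

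With the run as a term in limma, the log2 fold changes were -0.24 (SE 0.09) for *Asb13*, -0.15 (SE 0.09) for *Akr1c12*, -0.15 (SE 0.10) for *Akr1c6*, -0.11 (SE 0.08) for *Akr1c13* and -0.05 (SE 0.15) for *Akr1c14*. *Akr1c20* came to 0.01 (SE 0.11) and *Akr1c19* to 0.13 (SE 0.14). Over all genes this fit had 2.18% lower and 5.9% higher in Fgl1 LKO at an unadjusted p under 0.05. Without the first run, *Akr1c14* had a log2 fold change of 0.00 (SE 0.15).

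Within single runs, 4 of the 7 genes had the lower mean in Fgl1 LKO in every run that held both genotypes, here in the order of mouse numbers, as did 10.1% of all genes. Nothing is read from this count, since the genes were selected on the genotype contrast. These were *Asb13* (log2 differences of -0.37, -0.27 and -0.10), *Akr1c12* (-0.27, -0.09 and -0.14), *Akr1c13* (-0.14, -0.07 and -0.12) and *Akr1c6* (-0.11, -0.01 and -0.34). The other 3 had both signs among runs. *Akr1c14* had 0.08, 0.19 and -0.43, *Akr1c20* had 0.07, 0.32 and -0.41, and *Akr1c19* had -0.23, 0.42 and 0.06. These 3 runs held 1 to 3 mice of a genotype, and no test was made within a run.

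**Figure D2:**
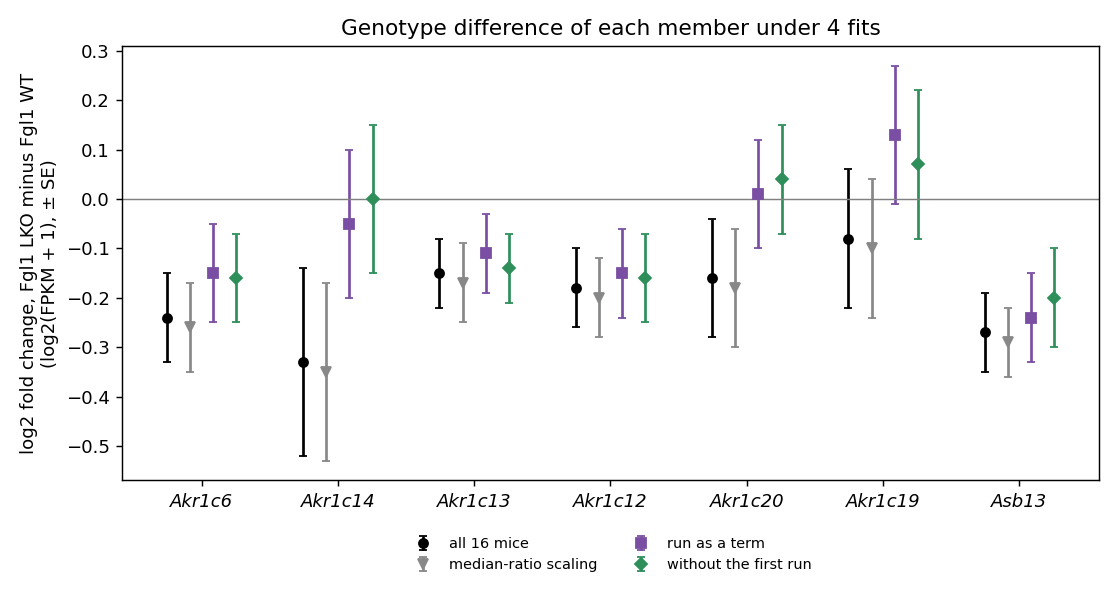
Log2 fold change (Fgl1 LKO minus Fgl1 WT, on log2(FPKM + 1), vertical axis) of each of the 7 genes, with bars of 1 SE, from limma on all 16 mice, after median-ratio scaling, with a term for the run and with the first run left out. Asb13, Akr1c6, Akr1c12 and Akr1c13 lie below 0 in all 4 fits, while Akr1c14 moves from -0.33 to 0.00 without the first run and Akr1c19 from -0.08 to 0.13 with the run as a term.

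In some marker lists the first-run mice lay apart from the other Fgl1 WT mice. The hepatocyte list (7 of 7 genes in the table, *Alb* the most abundant) summed to 74400, 78600 and 91500 FPKM in the first run, from 55700 to 68700 FPKM in the other 5 Fgl1 WT mice and from 51200 to 73000 FPKM in Fgl1 LKO mice (median 64800). The acute-phase list (6 of 6, *Hp* the most abundant), plasma proteins that hepatocytes make in inflammation, summed to 3380, 3410 and 3810 FPKM in the first run. It ranged from 3800 to 51500 FPKM in the other Fgl1 WT mice (median 7500) and from 3040 to 27000 FPKM in Fgl1 LKO mice (median 10800), so that the first run overlapped both. The median log2 fold change of the list was 0.20 and turned to -0.55 with the run as a term. These sums move with the first-run values of *Akr1c14* and *Akr1c20*. Their part in these values was not tested beyond the correlations below, which did not take the runs into account. In bulk liver RNA, fewer cells of a type and less RNA per cell cannot be told apart.

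Markers of other liver cells were present at lower sums. The Kupffer cell list (6 of 6, *Cd5l* the most abundant) summed to 52.5, 63.7 and 68.7 FPKM in the first run and to 77.5 to 112 FPKM in the other Fgl1 WT mice. It ranged from 65.5 to 140 FPKM in Fgl1 LKO mice, with a median of 98.6 FPKM against 84.5 FPKM in all Fgl1 WT mice and 96.2 FPKM in those outside the first run. Of its 6 genes 2 were higher in Fgl1 LKO at an unadjusted limma p under 0.05 (4.64% of all genes; 0 after adjustment), and the median log2 fold change of the list was 0.20, or 0.07 with the run as a term. The neutrophil list (3 of 3, *S100a8* the most abundant) summed to 0.66, 1.58 and 2.25 FPKM against 2.21 to 31.9 FPKM in the other Fgl1 WT mice. Its median was 9.49 FPKM in Fgl1 LKO mice, above that of all Fgl1 WT mice (4.78 FPKM) and below that of Fgl1 WT mice outside the first run (19.9 FPKM), and the median log2 fold change of 0.28 turned to -0.63 with the run as a term. Stellate cells (*Dcn*), sinusoidal endothelium (*Clec4g*) and cholangiocytes (*Spp1*) had medians of 92.1, 71.8 and 47.3 FPKM in Fgl1 WT and 85.4, 72.3 and 59.8 FPKM in Fgl1 LKO. In the first run their medians were 100, 84.1 and 55.7 FPKM, and in the other Fgl1 WT mice 91.0, 52.0 and 38.1 FPKM, with overlapping ranges. The cholangiocyte sum reached 56.1 FPKM in Fgl1 WT and 262 FPKM in Fgl1 LKO. The median log2 fold change of the cholangiocyte list was 0.22, or 0.32 with the run as a term. Lymphocytes (*Cd79a*) had medians of 1.00 and 0.99 FPKM in Fgl1 WT and Fgl1 LKO. Pericentral (*Glul*) and periportal (*Cyp2f2*) hepatocyte genes had medians of 942 and 2820 FPKM in Fgl1 WT and 941 and 2640 FPKM in Fgl1 LKO. At an unadjusted limma p under 0.05, 2 of 6 periportal genes were lower in Fgl1 LKO (2.36% of all genes; 0 after adjustment), with a median log2 fold change of -0.14, or -0.10 with the run as a term. Their part in the values of the 7 genes was not tested. Of tissues near the liver, adrenal cortex (3 of 4 genes in the table, *Cyp21a1*) had medians of 1.99 and 2.13 FPKM (0.8 to 1.28 in the first run, 1.88 to 4.18 in the other Fgl1 WT mice), exocrine pancreas (*Cela1*) 14.3 and 14.1 FPKM, kidney tubule (2 of 4, *Slc34a1*) 0.01 FPKM in both and adipocytes (2 of 3, *Adipoq*) 0.0 FPKM in both. Of 2 adrenal genes kept, 1 was lower in Fgl1 LKO at an unadjusted limma p under 0.05 (2.36% of all genes; 0 after adjustment), and their median log2 fold change was 0.05, or -0.13 with the run as a term. *Cpa1*, *Prss2* and *Pnlip* of the pancreas list and *Plin1* of the adipocyte list were at 0 in all mice.

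The relation of each of the 7 genes to the acute-phase sum was computed within each genotype, 14 relations chosen after the data were seen. Over all 8 mice the largest r was that of *Akr1c14* in Fgl1 WT, with r = -0.78 (exact permutation p = 0.0208, adjusted 0.291, n = 8) and rho = -0.86 (exact permutation p = 0.0107, adjusted 0.15). Without the 2 farthest mice r was -0.62. In Fgl1 LKO mice *Akr1c14* had r = 0.08 (exact permutation p = 0.871, adjusted 0.973, n = 8), rho = 0.36 (exact permutation p = 0.389, adjusted 0.599) and r = 0.12 without the 2 farthest mice. Without the 2 farthest mice 3 other relations were larger. *Akr1c13* in Fgl1 LKO had -0.64, from r = -0.04 (exact permutation p = 0.924, adjusted 0.973, n = 8) and rho = -0.12 (exact permutation p = 0.793, adjusted 0.854). *Akr1c20* in Fgl1 WT had -0.75, from r = -0.56 (exact permutation p = 0.126, adjusted 0.469, n = 8) and rho = -0.60 (exact permutation p = 0.132, adjusted 0.599). *Akr1c19* in Fgl1 LKO had -0.86, from r = -0.41 (exact permutation p = 0.314, adjusted 0.55, n = 8) and rho = -0.33 (exact permutation p = 0.428, adjusted 0.599). None of the 14 relations passed the threshold after adjustment, and the difference between genotypes was not tested. The permutations exchanged all 8 mice of a genotype freely, so in Fgl1 WT these relations cannot be told apart from the runs.

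Covariation of the 7 genes across mice was described within each genotype. The median Pearson r of log2(FPKM + 1) over the 21 pairs of the 7 genes was 0.68 in Fgl1 WT and 0.26 in Fgl1 LKO mice, and 20 and 14 of the pairs lay above 0. Over all pairs of 10038 genes averaging 1 FPKM or more, a comparison added after the data were seen, the median r was 0.13 and 0.02, with 60.4% and 51.6% of pairs above 0. The Fgl1 WT mice include the first run, which all these values share, and nothing particular to the cluster is read from them. *Asb13* followed the others least, with r between -0.18 and 0.42 in Fgl1 WT. Of the 42 pairs of both genotypes, 9 had an unadjusted exact permutation p under 0.05 and 1 passed after adjustment. This was *Akr1c19* with *Akr1c20* in Fgl1 WT, with r = 0.91 (exact permutation p = 0.00114, adjusted 0.0479, n = 8), rho = 0.90 (exact permutation p = 0.00456, adjusted 0.192) and r = 0.85 without the 2 farthest mice. In Fgl1 LKO the same pair had r = 0.02 (exact permutation p = 0.967, adjusted 0.967, n = 8), rho = 0.12 (exact permutation p = 0.793, adjusted 0.876) and r = 0.10 without the 2 farthest. These permutations exchanged all 8 mice of a genotype freely and did not take the runs into account. The difference between genotypes was not tested.

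The values depended on single mice. The median r in Fgl1 WT was 0.31 without replicate 2, the highest mouse in all 6 *Akr1c* genes. Taken as deviations from the mean of run and genotype over all 16 mice, a form chosen after the data were seen, the median over 21 pairs was 0.50. *Akr1c6* and *Akr1c14* had 0.83, *Akr1c12* and *Akr1c13* 0.80, and *Akr1c19* and *Akr1c20* 0.55. Within genotypes the median over the 42 pairs was 0.39. These medians are not like for like, since the deviations pool both genotypes besides removing the run. Fgl1 WT replicate 4, the only mouse of its run and genotype, adds nothing to the deviations. The twins *Akr1c12* and *Akr1c13*, whose promoters are shown above, had r = 0.79 in Fgl1 WT (exact permutation p = 0.0215, adjusted 0.163, n = 8) and r = 0.74 in Fgl1 LKO (exact permutation p = 0.0354, adjusted 0.165, n = 8). Their rho was 0.64 (exact permutation p = 0.0962, adjusted 0.337) and 0.67 (exact permutation p = 0.0831, adjusted 0.337). Without the 2 farthest mice r was 0.44 and 0.38. The transcripts of this pair share stretches of read length, and the part of shared reads in these values was not tested.

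**Figure D3:**
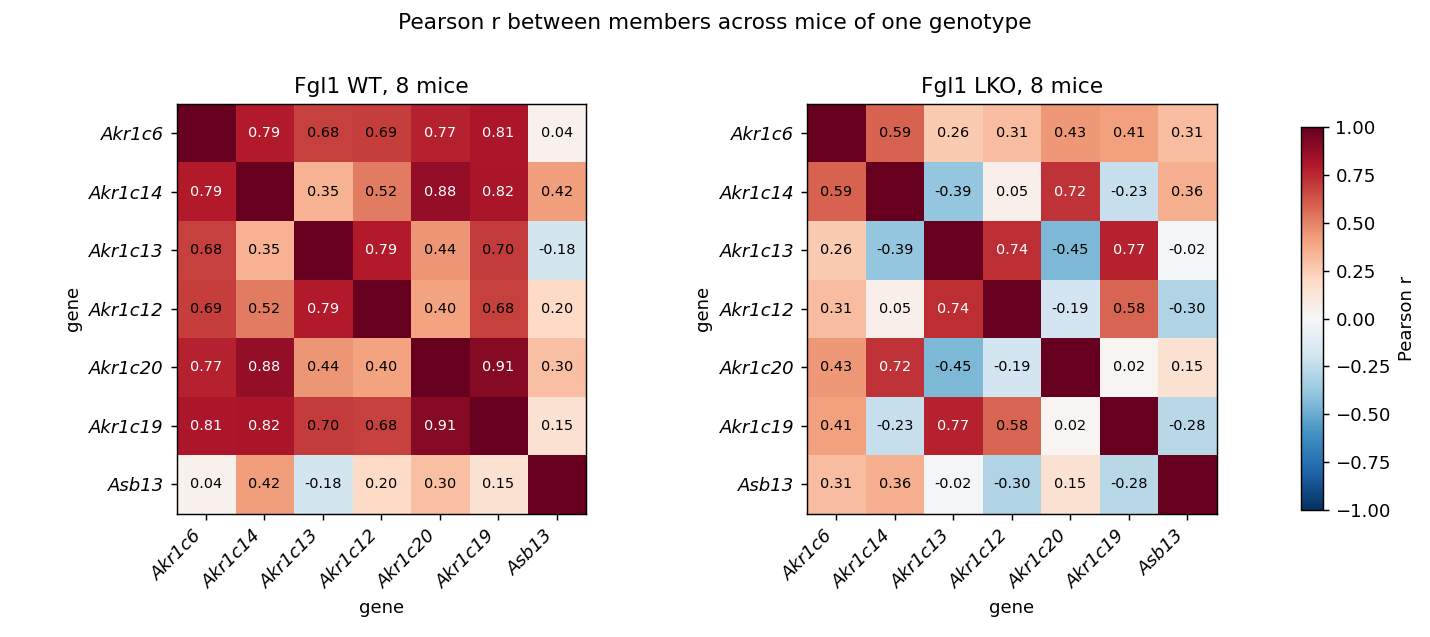
Pearson r of log2(FPKM + 1) between each pair of the 7 genes (both axes, in order of level) across the 8 Fgl1 WT mice (left) and the 8 Fgl1 LKO mice (right), from blue (-1) to red (1). The 6 Akr1c genes are all above 0 with each other in Fgl1 WT, from 0.35 to 0.91, while in Fgl1 LKO the pair Akr1c13 and Akr1c20 is at -0.45 and Akr1c12 and Akr1c13 stay at 0.74.

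The genes most alike in pattern were sought for the 3 most abundant members. Likeness was measured as Pearson r over deviations from the genotype means in 16 mice, among 10037 genes averaging 1 FPKM or more, as a description without a test. For *Akr1c6* the nearest genes were *Ugt2b36*, a glucuronosyltransferase gene (0.90), *Ndufb1* (0.88) and *Zfp946* (0.87), while *Akr1c14* ranked 115th (0.74). For *Akr1c14* they were *Slco1b2*, a hepatocyte uptake transporter gene (0.95), *Ccni* (0.94) and *Rnf128* (0.94), and *Akr1c20* ranked 120th (0.82). For *Akr1c13* they were *Ddx52* (0.90), the peroxiredoxin gene *Prdx1* (0.86) and *Mrpl47* (0.84), and *Akr1c12* ranked 24th (0.76). The best of so many genes is bound to rank above the few members, and these mice share runs, which likeness of this kind includes.

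Neighbours of the 7 genes on chromosome 13 had log2 fold changes on both sides of 0. Within 3 Mb of the span, 7 other genes were kept, of which 2 lay below 0 (*Gdi2* at -0.08, SE 0.07, and *Akr1e1* at -0.11, SE 0.07) and 0 had an unadjusted limma p under 0.05 in either direction. Their median log2 fold change was 0.0516 (0.0108 with the run as a term, with 3 below 0), and that of all genes 0.0143 (0.0205). *Gdi2* (93.3 ± 9.24 against 88.3 ± 7.47 FPKM) and *Tasor2* (1.95 ± 0.432 against 2.38 ± 0.651 FPKM, SD, n = 8 each) lie between *Speer6-ps1* and *Asb13*. *Net1*, at 20.7 ± 3.52 against 21.6 ± 4.02 FPKM (SD, n = 8 each), lies between *Asb13* and *Akr1c14*. With the run as a term, *Tasor2* (0.30, SE 0.13), *Net1* (0.24, SE 0.09) and *Pitrm1* (0.18, SE 0.07) had an unadjusted p under 0.05 and were higher in Fgl1 LKO, with limma adjusted p-values of 0.597, 0.554 and 0.586. Leaving out the 7 genes and *Fgl1*, 5 genes were kept within 3 Mb of *Speer6-ps1* and 13 within 3 Mb of *Fgl1*, with medians of 0.0516 and -0.0161. All 5 near *Speer6-ps1* are among the 7 neighbours above and are no separate observation. An unadjusted p under 0.05 was reached by 0 genes of these windows in the fit without runs. With the run as a term it was reached by 2 near *Speer6-ps1*, again *Tasor2* and *Net1*, and by 1 near *Fgl1*. The last was *Micu3* (0.15, SE 0.05, limma adjusted p = 0.538), and all were higher in Fgl1 LKO. The most abundant near *Fgl1* were *Slc7a2* (-0.30, SE 0.21, and -0.10 with the run as a term), *Mtus1* (0.07, SE 0.07) and *Frg1* (-0.12, SE 0.08). At this threshold, within 10 Mb of the 7 genes 4 of 25 other genes were higher and 0 lower (4.64% and 2.36% of all genes). With the run as a term 8 were higher and 0 lower (5.9% and 2.18% of all genes). Within 10 Mb of *Fgl1*, 1 of 63 genes was higher and 4 lower, and 4 and 1 with the run as a term. The members *Akr1c14*, *Akr1c13*, *Akr1c19*, *Akr1c12*, *Akr1c6* and *Akr1c20* lie in a row between *Net1* and *Akr1e1*, with no other gene among those that were kept and had a position.

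**Figure D4:**
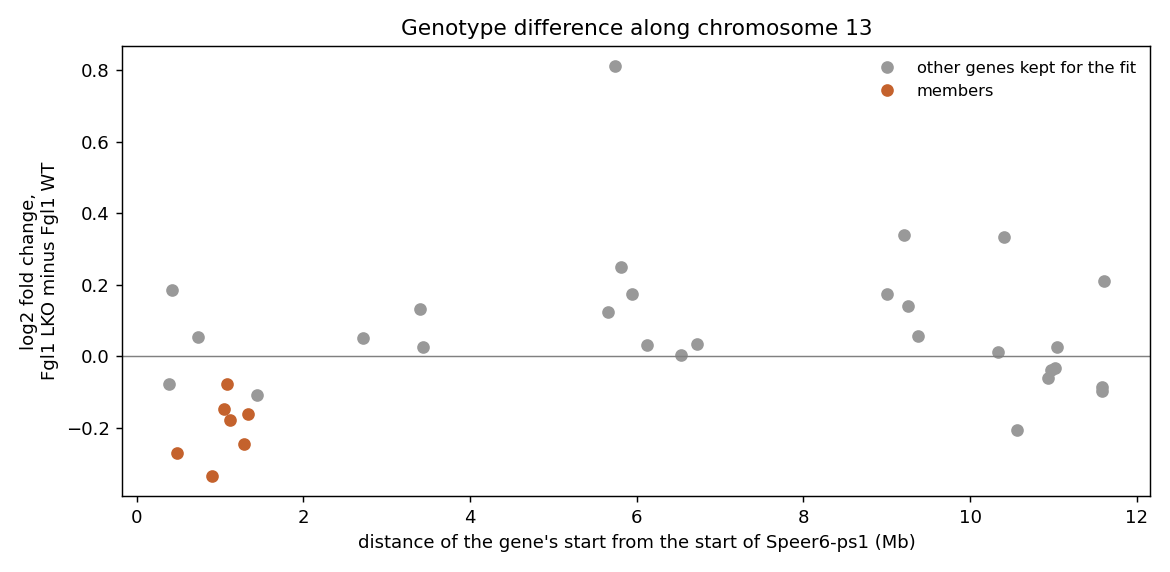
Log2 fold change (Fgl1 LKO minus Fgl1 WT, vertical axis) of the 7 genes (orange) and of other genes kept for the fit (grey) against the distance of their start from the start of Speer6-ps1 on chromosome 13 (Mb, horizontal axis). The 7 genes lie between -0.33 and -0.08, beside neighbours on both sides of 0, and the highest point is Idi1 at 0.81 (SE 0.34, limma adjusted p = 0.696), named after its value was seen.

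Of the rest of the cluster, 2 genes were scarcely expressed and *Akr1e1* was expressed at the level of *Asb13*. *Akr1c18*, a 20-alpha-hydroxysteroid dehydrogenase gene, had 0.07 ± 0.0917 FPKM in Fgl1 WT and 0.114 ± 0.0725 FPKM in Fgl1 LKO (SD, n = 8 each), and *Akr1c21* 0.06 ± 0.0555 and 0.06 ± 0.0454 FPKM, both below the filter. *Akr1e1*, next to *Akr1c20*, had 21.0 ± 1.74 and 19.4 ± 2.12 FPKM (SD, n = 8 each). Of the other aldo-keto reductases 10 were kept, and 0 had an unadjusted limma p under 0.05 (2.36% of all genes lower, 4.64% higher). Of these genes 8 lay below 0 (44.2% of all genes), and the median log2 fold change was -0.04 (all genes, 0.0143). The most abundant were *Akr1a1* (-0.03, SE 0.05), *Akr7a5* (-0.07, SE 0.09) and *Akr1d1*, the bile acid and steroid 5-beta-reductase gene (-0.24, SE 0.23), which came to 0.06 with the run as a term.

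Other steroid dehydrogenases and reductases, some of which share substrates with the AKR1C enzymes, held 17 genes kept for the fit. Of these 6 were lower and 1 higher in Fgl1 LKO at an unadjusted limma p under 0.05 (2.36% and 4.64% of all genes), 0 passed after adjustment, and the median log2 fold change was -0.12 (all genes, 0.0143). The lower ones were *Hsd17b6* (58.2 ± 23.5 against 30.9 ± 9.08 FPKM, SD, n = 8 each), *Hsd3b2* (30.2 ± 6.45 against 20.3 ± 6.27 FPKM), *Hsd3b3*, *Hsd11b1*, *Hsd17b13* and *Srd5a2*. *Hsd17b6* had a log2 fold change of -0.85 (SE 0.23, limma adjusted p = 0.66) and -0.78 with the run as a term, and *Hsd3b2* -0.59 (SE 0.20, limma adjusted p = 0.696) and -0.51. *Hsd11b1*, which regenerates active glucocorticoid and is among the 3 most abundant with *Hsd3b7* and *Hsd17b13*, had -0.24 (SE 0.11, limma adjusted p = 0.696) and -0.13 with the run as a term. *Hsd17b7*, an enzyme gene of cholesterol synthesis, was the higher one at 0.53 (SE 0.23, limma adjusted p = 0.696), and 0.77 with the run as a term.

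Genes regulated by NRF2, the factor that binds antioxidant response elements and drives some aldo-keto reductase genes, were also counted. Of 17 kept, 0 were lower and 1 higher at an unadjusted limma p under 0.05 (2.36% and 4.64% of all genes), and the median was 0.10 (all genes, 0.0143). That gene, *Txnrd1*, had a log2 fold change of 0.29 (SE 0.12, limma adjusted p = 0.696), and *Gstm1*, *Ephx1* and *Gclc*, the most abundant, had -0.11, -0.05 and 0.02, and 0.02, 0.08 and 0.27 with the run as a term. Of the ASB and Cullin-5 ligase genes, the partners and relatives of *Asb13*, 10 were kept. At an unadjusted limma p under 0.05, 0 were lower and 1 higher (2.36% and 4.64% of all genes). The higher one was *Asb6* (0.18, SE 0.08, limma adjusted p = 0.696). In the list 2 genes lay below 0 (44.2% of all genes), and the median log2 fold change was 0.01 (all genes, 0.0143). *Cul5* had 0.01 (SE 0.07), *Elob* 0.09, *Eloc* -0.10 and *Rnf7* 0.02. These ligase subunit genes are not compared with *Asb13*, which was chosen on this genotype contrast.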

How the data were processed

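PolyA RNA of 16 livers, isolated with phenol and chloroform, was made into stranded DNBSEQ libraries by the study. The authors aligned filtered 150-base read pairs to mm39 with HISAT and to reference genes with Bowtie2, and used Dr. Tom software. Versions, counting and annotation are not given in the sources used here. The values were deposited as FPKM, rounded to 2 decimals, as the column names state. Read depth is unknown, and summed FPKM ran from 673153 to 786188 per mouse. A figure legend of the study matches the 16 columns, while its methods name fewer mice, and all 16 were used.

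Here 1 was added, log2 taken, genes averaging 0.1 FPKM or more kept, and genotypes compared with limma 3.58.1 (R 4.3.3, lmFit, eBayes with trend), two-sided, Benjamini-Hochberg, threshold 0.05. The limma fit was tested on simulated data. Alternatives changed the filter, pseudocount and scaling, added a replicate block or a run term, and left out single mice or the first run. Correlations used all 40320 pairings of 8 mice (exact, two-sided; Python 3.11.15, scipy 1.17.1). Positions are GRCm39, which mm39 names, matched by symbol. Named outside genes were the 3 most like each of the 3 most abundant members and, in each pathway list or 3 Mb window, those with an unadjusted p under 0.05 and the 3 most abundant. *Cul5* was named outside this rule, as were *Fitm2* and *Idi1*, these last after their values were seen. The members and lists were chosen with earlier results of these data known.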

Additional observations from a re-analysis of the deposited data

Results flagged for a closer look

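In a search of 84 groups of 8 mice (the 7 genes, *Fgl1* and the other named genes, in each genotype), 5 held a mouse whose gap to its nearest neighbour was large against the range of the group, where chance gives about 4.2. None of the 5 was among the 7 genes. In 4 of them the mouse was Fgl1 LKO replicate 8, the lowest of its genotype. These were *Hsd3b3* (107 FPKM, the next mouse 158.9, gap 0.596 of the range), *Akr1e1* (14.8 and 18.3 FPKM, 0.576), *Zfp946* (2.72 and 3.64 FPKM, 0.565) and *Slco1b2* (157 and 223 FPKM, 0.555). The same mouse had the lowest *Akr1c6*, *Akr1c14* and *Akr1c20* of all 16 mice (569, 84.4 and 39.1 FPKM). *Zfp946* and *Slco1b2* were named for their likeness to *Akr1c6* and *Akr1c14*, so their low values in this mouse are no separate observation. The chance figure takes no account of this choice. The last of the 5 was *Elob* in Fgl1 WT replicate 3 (138 and 168 FPKM, 0.545).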

How the results depend on the processing

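For the 7 genes, 163 of 168 refits kept the direction of the log2 fold change and moved it by less than the residual SD. In 5 it was reversed: with a run term *Akr1c19* at 0.129 and *Akr1c20* at 0.0113, leaving out the first run 0.0693 and 0.0366, and *Akr1c19* at 0.000544 without Fgl1 WT replicate 2. The changed filters and the replicate block leave a gene's own log2 fold change as it was, so their refits were bound to count as kept. *Akr1c14* also counted as kept without the first run, at -0.000578 from -0.333 in the fit on all mice. *Akr1c19* ranged down to -0.152 (without Fgl1 LKO replicate 7). Without single mice, *Akr1c14* ranged from -0.422 (without Fgl1 WT replicate 7) to -0.211 (without Fgl1 WT replicate 2). In the same way *Akr1c20* ranged from -0.209 (without Fgl1 WT replicate 5) to -0.0978 (without Fgl1 WT replicate 2). The 0 genes past the adjusted threshold in limma became 1, *Fgl1*, in 3 fits, those with a run term, with the first run left out and with the replicate number as a block (925 genes unadjusted, 895 without the block). The replicate numbers did not pair the mice, since 3 of 8 pairs correlated above 0.1 (-0.161 to 0.446) and 2 of the 8 Fgl1 WT mice matched best with their own number. Genes whose genotypes do not overlap went from 2 to 5 with quantile normalization, to 23 without the first run (fewer mice) and to between 2 and 9 without single mice. The median r in Fgl1 WT was 0.31 to 0.70 without single mice, 0.40 with quantile normalization and not computed without the first run, which leaves 5 mice. In Fgl1 LKO it was -0.04 without replicate 8 and up to 0.38 without replicate 6. The median near the 7 genes was -0.0123 within 1 Mb, and near *Fgl1* 0.00111 within 10 Mb and 0.039 with the run as a term. The cause of these changes was not tested. Read depth is unknown, so counting error was not estimated.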
